A study of Mus musculus with 3 samples.

Results

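The 9 genes described here encode costimulatory receptors and ligands of T cells, and they were taken by symbol from the 33696 genes of the deposited matrices, where each symbol occurred once. They are the TNF receptors Tnfrsf9 (CD137), Tnfrsf4 (OX40), Tnfrsf18 (GITR), Tnfrsf1b (TNFR2) and Cd27, the TNF ligands Cd70 and Tnfsf8, and the CD28 family receptors Icos and Cd28, which are not of the TNF superfamily. The genes were measured by single-cell RNA sequencing of tumor-infiltrating T cells in 3 libraries, 1 for each of 3 cytokine treatments. The cells sorted for were mouse pmel T cells, which are CD8+ T cells carrying a transgenic receptor for a gp100 peptide and the congenic mark Thy1.1. They were transferred into irradiated C57BL/6 mice bearing B16F10 melanoma and recovered from tumors on day 18 after tumor injection by a sort for live cells with Thy1.1 and CD8.

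The treatments were sIL-2, an engineered interleukin-2, the IL-2/21-Trikine, in which sIL-2 is joined to a binder of the interleukin-21 receptor, and sIL-2 + IL-21, in which sIL-2 was used with active IL-21 as a separate molecule. The binder in the Trikine is an IL-21 mutant that per the study does not signal by itself. Cells were cultured with peptide and the named cytokine before transfer, and per the study's methods the mice that received sIL-2 + IL-21 cells were then dosed with sIL-2 alone, whereas mice that received Trikine cells were dosed with the Trikine. The number of mice behind each library is not given in the sources used here. Each treatment is therefore 1 sample with no replicate, no test between treatments was possible, and every interval below covers counting error alone and leaves out the spread between mice.

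T cell receptor signaling alone gives incomplete activation, and costimulatory receptors add to it. CD28 and ICOS, of the immunoglobulin superfamily, signal mainly through phosphoinositide 3-kinase, whereas receptors of the tumor necrosis factor (TNF) superfamily recruit TRAF adaptors and activate NF-kB. In CD8+ T cells CD27 and CD28 are present before activation, and CD137, OX40, GITR and ICOS are induced by antigen.

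The sIL-2 library held 7760 kept cells, that of the Trikine 13299, and that of sIL-2 + IL-21 held 9798. Unique molecular identifiers (UMIs, 1 per captured RNA molecule) came to a median of 12882.5, 10254 and 14055.5 per cell in that order. The Trikine library was thus the shallowest per cell, and 13.4% of its cells had fewer than 2000 UMIs, against 3.43% and 3.72% in the others. All 8 CD8 T cell identity genes were detected in each library, with a summed level between 5035 and 6484 CPM (UMIs of a gene per 1000000 UMIs of its library). Markers of other cells were low: the 7 melanoma genes summed to 2.54 to 9.53 CPM and the 13 myeloid genes to 142 to 204 CPM. A cluster of 45 myeloid-like cells was present, and 18 to 41 cell barcodes were shared by each pair of libraries. No doublet caller was run.

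Both a level and a share are given. A level is the CPM of a gene over all kept cells, which cannot tell fewer expressing cells from less RNA per cell. A share of positive cells is the share with at least 1 UMI after each cell was thinned to 2000 UMIs at random. Cells with fewer than 2000 UMIs were left out of the shares but count in the levels, so the 2 cover unlike sets of cells. Levels count UMIs and are not divided by gene length. A difference counts as large when the absolute log2 ratio of 2 levels is at least 0.5, called the size threshold below.

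By that size, 1 of the 9 genes was higher (Cd70) and 1 lower (Tnfrsf1b) with the Trikine than with sIL-2, where 3.45% of 11275 tested genes were higher and 7.42% lower. Against sIL-2 + IL-21 the Trikine library was higher in 2 (Cd27 and Tnfsf8) and lower in 1 (Cd70), beside 4.65% and 5.66% of all tested genes. The sIL-2 library was higher than sIL-2 + IL-21 in 4 (Tnfrsf1b, Cd27, Tnfsf8 and Cd28) and lower in 1 (Cd70), beside 11.3% and 7.29%. These comparisons share libraries and are not independent. The median log2 ratio of the 9 genes was -0.32, 0.18 and 0.48 in the same order, against -0.08, -0.00 and 0.08 for all tested genes. The 8 CD8 identity genes had medians of -0.23, 0.11 and 0.32, so general T cell genes moved the same way as most of the 9; their part in the differences was not tested.

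**Figure D1:**
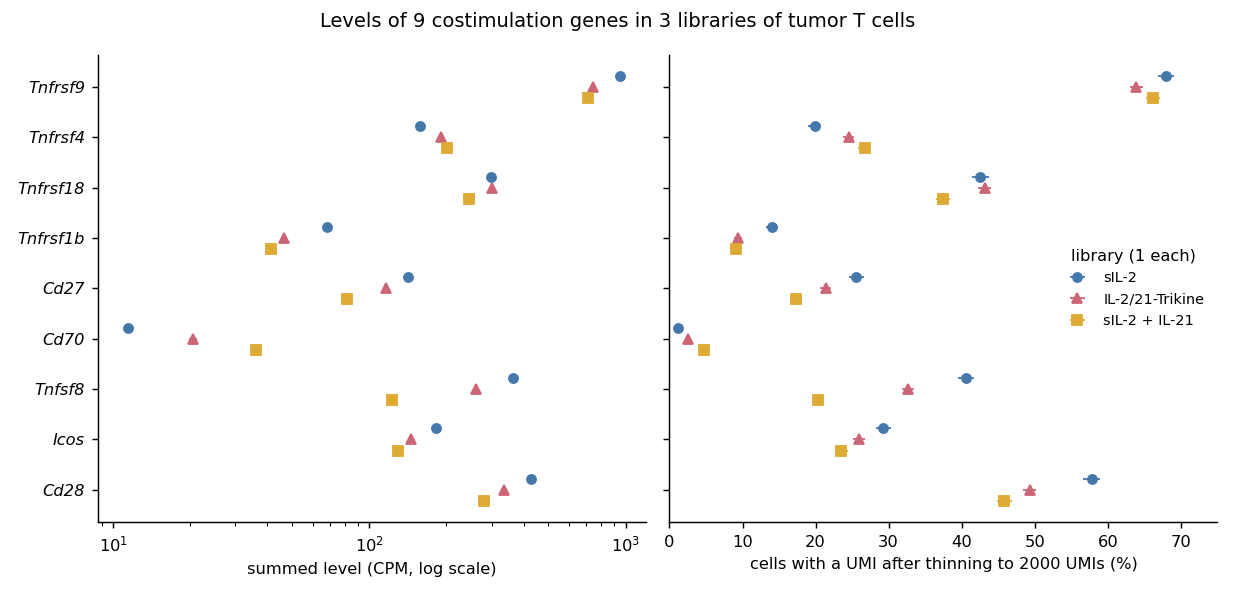
Level in CPM (left, log axis) and share of positive cells after thinning to 2000 UMIs (right, percent) of the 9 genes, 1 point per library with exact 95% intervals of counting error. Cd70 is lowest with sIL-2 (11.4 CPM) and highest with sIL-2 + IL-21 (36.0 CPM), while Tnfsf8 runs the other way (365 and 123 CPM).

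**Figure D2:**
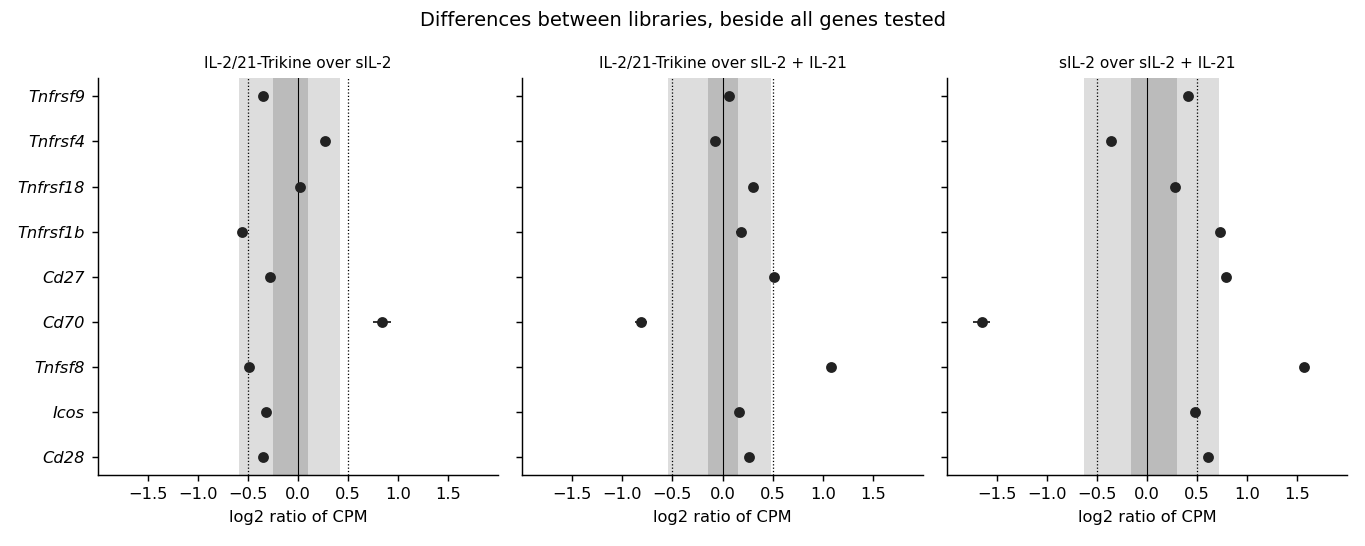
Log2 ratio of CPM between each pair of libraries for the 9 genes, with 95% intervals of counting error. Grey bands span the 5th to 95th and the 25th to 75th percentile of all 11275 tested genes and dotted lines mark ratios of 0.5 in either direction; Cd70 and Tnfsf8 lie farthest apart in the sIL-2 against sIL-2 + IL-21 panel, at -1.65 and 1.57.

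Promoter sequences from RefSeq (build GRCm38.p6, 250 bases before the start to 50 after, in gene orientation) were at hand for 6 of the 9 genes, and 5 windows are shown, the 4 that hold a motif named next and that of Tnfsf8, whose level differed most of those with a promoter. The windows were searched on both strands for TTCNNNGAA (STAT-like, in 8.30% of 32851 promoters), TGANTCA (AP-1-like, in 7.81%) and GGGNTTNCC (NF-kB-like, in 4.66%). Capitals mark each match, and a match is a description of the letters, not a shown binding site.

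Tnfrsf9, chr4:150927749-150928048, plus strand: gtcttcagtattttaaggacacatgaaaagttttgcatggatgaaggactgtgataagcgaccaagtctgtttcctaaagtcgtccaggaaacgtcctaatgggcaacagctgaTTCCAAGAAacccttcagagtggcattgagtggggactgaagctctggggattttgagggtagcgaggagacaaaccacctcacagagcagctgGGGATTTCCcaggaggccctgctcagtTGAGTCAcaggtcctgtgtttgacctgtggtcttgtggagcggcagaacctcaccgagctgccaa
Tnfrsf18, chr4:156026072-156026371, plus strand: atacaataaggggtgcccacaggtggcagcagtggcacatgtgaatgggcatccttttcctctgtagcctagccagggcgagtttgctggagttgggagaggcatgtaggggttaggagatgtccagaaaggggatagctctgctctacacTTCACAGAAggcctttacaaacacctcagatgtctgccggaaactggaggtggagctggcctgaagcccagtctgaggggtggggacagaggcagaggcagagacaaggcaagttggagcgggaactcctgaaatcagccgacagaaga
Tnfrsf1b, chr4:145246821-145247120, minus strand: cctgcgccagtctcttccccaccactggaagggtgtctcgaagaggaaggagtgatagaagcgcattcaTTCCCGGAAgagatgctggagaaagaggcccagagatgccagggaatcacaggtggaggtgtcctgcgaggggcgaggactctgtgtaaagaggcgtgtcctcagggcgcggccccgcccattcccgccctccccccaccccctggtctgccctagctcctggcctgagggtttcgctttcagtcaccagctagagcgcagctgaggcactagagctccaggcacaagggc
Cd27, chr6:125236978-125237277, minus strand: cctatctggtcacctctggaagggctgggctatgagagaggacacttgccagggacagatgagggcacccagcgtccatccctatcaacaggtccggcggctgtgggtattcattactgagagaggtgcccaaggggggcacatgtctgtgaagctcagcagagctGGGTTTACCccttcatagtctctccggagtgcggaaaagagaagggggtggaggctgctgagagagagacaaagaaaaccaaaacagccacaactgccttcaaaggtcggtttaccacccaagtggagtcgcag
Tnfsf8, chr4:63861235-63861534, minus strand: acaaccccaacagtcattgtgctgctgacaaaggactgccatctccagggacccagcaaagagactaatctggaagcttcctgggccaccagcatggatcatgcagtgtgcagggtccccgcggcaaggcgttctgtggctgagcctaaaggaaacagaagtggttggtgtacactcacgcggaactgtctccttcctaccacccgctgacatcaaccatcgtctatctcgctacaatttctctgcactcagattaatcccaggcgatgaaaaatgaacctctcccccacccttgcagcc

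This Tnfrsf9 window held all 3 motifs, at 136 (TTCNNNGAA), 42 (GGGNTTNCC) and 15 (TGANTCA) bases before the start, and the second annotated Tnfrsf9 promoter held none. TTCNNNGAA was also present at 99 bases before the Tnfrsf18 start and 181 bases before that of Tnfrsf1b, and GGGNTTNCC at 84 bases before that of Cd27. None of the 3 motifs was in the Tnfsf8 or Tnfrsf4 window. In the RefSeq annotation Tnfrsf4 and Tnfrsf18 are neighbors on chromosome 4, Tnfrsf1b lies next to Tnfrsf8 on the same chromosome, Cd70 lies between Tnfsf9 and Tnfsf14 on chromosome 17, and Cd28, Ctla4 and Icos stand in a row on chromosome 1.

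Among the 5 TNF receptors, Tnfrsf9 (CD137), a marker of recent antigen stimulation, was found in the most cells of each library. Its level was 952 CPM with sIL-2, 748 with the Trikine, while sIL-2 + IL-21 gave 716. The sIL-2 library was highest and the other 2 lay close together, with a log2 ratio of -0.35 [-0.36, -0.34] for Trikine over sIL-2 and 0.06 [0.05, 0.07] for Trikine over sIL-2 + IL-21, neither of them past the size threshold. Positive cells made up 68.0%, 63.9% and 66.2%, so the share differed less than the level. Positive cells held 2.75, 2.33 and 2.19 UMIs of Tnfrsf9 on average after thinning.

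Tnfrsf4 (OX40) had the opposite order. It stood at 158 CPM with sIL-2, 191 with the Trikine, and 202 for sIL-2 + IL-21, and 19.9%, 24.5% and 26.7% of cells were positive. The largest ratio, sIL-2 over sIL-2 + IL-21, was -0.36 [-0.38, -0.33] on the log2 scale, short of the size threshold, and Trikine over sIL-2 + IL-21 was -0.08 [-0.10, -0.06]. Under other processing settings that last ratio ran from -0.17 to 0.06.

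Tnfrsf18 (GITR) varied least between sIL-2 and the Trikine, at 297 and 302 CPM, and was at 245 CPM with sIL-2 + IL-21. Trikine over sIL-2 was 0.02 [0.01, 0.04] in log2 and Trikine over sIL-2 + IL-21 0.30 [0.28, 0.32]. Its shares of positive cells were 42.6%, 43.1% and 37.5%.

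Tnfrsf1b (TNFR2), a TNF receptor that lacks a death domain, was at 68.4 CPM with sIL-2, 46.5 with the Trikine, while sIL-2 + IL-21 gave 41.2. The sIL-2 library stood above both others, by 0.73 [0.69, 0.78] over sIL-2 + IL-21, and the Trikine library was at -0.56 [-0.60, -0.51] against sIL-2. The latter was -0.48 with size factors and -0.46 with each cell weighted equally, both short of the size threshold. Positive cells were 14.0%, 9.42% and 9.08%.

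Cd27, a receptor of naive and memory T cells that is lost on terminal differentiation, was at 141 CPM with sIL-2, 117 with the Trikine, while sIL-2 + IL-21 gave 81.8. The sIL-2 over sIL-2 + IL-21 log2 ratio was 0.79 [0.75, 0.82] and Trikine over sIL-2 + IL-21 was 0.51 [0.48, 0.54], just past the size threshold. That ratio was 0.34 with each cell weighted equally and 0.31 in cells thinned to 2000 UMIs, both short of it. The shares followed the levels, at 25.6%, 21.4% and 17.3%. Markers of terminal cytotoxic cells, 10 genes such as Gzmc and Havcr2, summed to 7963, 3504 and 11908 CPM and were thus highest where Cd27 was lowest, although the Trikine library had the lowest sum and not the highest Cd27.

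Cells with at least 1 of the 5 TNF receptors were the rule: no UMI of any was found in 11.7% of thinned cells with sIL-2, 13.0% with the Trikine, while sIL-2 + IL-21 gave 13.3%. The induced receptors Tnfrsf9, Tnfrsf4 and Tnfrsf18 were all 3 present in 8.07%, 9.42% and 8.54% of cells.

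Of the ligands, Cd70, which binds CD27 and is present on activated lymphocytes, was the one with the widest spread of levels. It counted 1490 UMIs with sIL-2, 3419 with the Trikine, and 6052 for sIL-2 + IL-21, or 11.4, 20.5 and 36.0 CPM. Each library stood apart from the others by more than the counting error: Trikine over sIL-2 was 0.84 [0.75, 0.93] in log2, Trikine over sIL-2 + IL-21 was -0.81 [-0.87, -0.75], and sIL-2 + IL-21 was 3.15-fold above sIL-2. Only 1.15%, 2.52% and 4.69% of thinned cells were positive, and 7.20%, 10.3% and 22.7% at full depth. The tenth of cells with the most Cd70 held 100%, 98.9% and 76.2% of its UMIs. With 7.20% and 10.3% of cells positive, the values for sIL-2 and the Trikine follow largely from the positive shares.

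Tnfsf8 (CD30 ligand) had its highest level with sIL-2, at 365 CPM, followed by 260 with the Trikine, while sIL-2 + IL-21 gave 123. The Trikine library was 2.12-fold above sIL-2 + IL-21 (log2 1.08 [1.06, 1.10]) and sIL-2 was 2.97-fold above it (1.57 [1.55, 1.59]), while Trikine over sIL-2 was -0.49 [-0.51, -0.47], just short of the size threshold. That last ratio was past it at -0.54 with each cell weighted equally and -0.60 in cells thinned to 2000 UMIs. With size factors it was -0.41, short of the threshold. Positive cells were 40.6%, 32.6% and 20.3%.

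Of the CD28 family, Cd28 was at 427 CPM with sIL-2, 335 with the Trikine, and 280 for sIL-2 + IL-21, with 57.8%, 49.3% and 45.8% of cells positive. Its sIL-2 over sIL-2 + IL-21 log2 ratio of 0.61 [0.59, 0.63] was past the size threshold and the other ratios were not. Icos, which is induced on activation, had the same order at 182, 145 and 130 CPM, with sIL-2 over sIL-2 + IL-21 at 0.48 [0.46, 0.51], short of the threshold. Cells with neither Cd27 nor Cd28 made up 32.2% with sIL-2, 40.3% with the Trikine, and 45.7% for sIL-2 + IL-21, and cells with both 15.6%, 10.9% and 8.87%.

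As a background for free RNA, shares were read in the 45 myeloid-like cells (39 after thinning, median 9966 UMIs before), which should lack T cell genes. Cd3e was found in 30.8% of them, Tnfrsf9 in 35.9%, Tnfrsf18 in 15.4%, Cd28 and Tnfsf8 in 17.9% each, Tnfrsf4 and Cd27 in 7.69% each, Icos in 5.13%, and Cd70 in 0 of 39, with an exact 95% upper bound of 9.03%. Tnfrsf1b, which myeloid cells also express, was in 25.6%. The myeloid values are imprecise. These cells also passed the sort for Thy1.1 and CD8, and without a doublet caller free RNA could not be told apart from doublets with T cells. The shares of Tnfrsf9, Tnfrsf18, Icos and Cd28 lay above the exact 95% intervals of the myeloid shares in every library. Tnfsf8 lay inside its myeloid interval (7.54% to 33.5%) in the Trikine and sIL-2 + IL-21 libraries, and of the myeloid interval of 1.62% to 20.9% that Tnfrsf4 and Cd27 share, Tnfrsf4 lay inside with sIL-2 and Cd27 with sIL-2 + IL-21. The library shares of Tnfrsf1b lay below the myeloid share, and those of Cd70 lay within the bound that so few cells allow.

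Clustering without the 9 genes, their partners or the marker lists gave 14 clusters, so that the levels of the 9 could be set beside cell state. The clusters were present in unlike shares: cluster 1, ISG-like (interferon-stimulated genes), held 18.1% of sIL-2 cells, 13.9% of Trikine cells and 8.66% of sIL-2 + IL-21 cells. Cluster 4, led by Egr3, Nr4a1 and Slfn5, with Cdkn1a and Rsad2 also among its leading genes, held 26.3%, 7.63% and 4.86%. Slfn5 and Rsad2 were leading genes of the ISG-like cluster 1 as well. Cluster 5, led by genes that include Ighm, Ccr7 and Tcf7, held 4.23%, 18.3% and 7.12%.

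Clusters richest in sIL-2 + IL-21 cells were cluster 7, terminal cytotoxic-like, at 3.0%, 2.38% and 19.5% in the same order, and cluster 8, led by histone genes, at 2.15%, 1.78% and 13.8%. Clusters 2 and 10 were early activated-like, and clusters 11 and 12 had low depth, with medians of 1092.5 and 745 UMIs. Cluster 12 was led by the hemoglobin genes Hbb-bs and Hba-a1 and by the melanoma genes Mlana and Dct, and it held 5.63% of Trikine cells against 0.786% and 0.725% of sIL-2 and sIL-2 + IL-21 cells. It carried 0.540% of all UMIs of the Trikine library, 0.527% of its Cd70 UMIs and 0.380% of its Tnfsf8 UMIs, and without it, cluster 11 and the myeloid-like cells the counts of genes past the size threshold were as reported.

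Clusters were ranked by libraries with at least 50 cells in them, which leaves out the myeloid-like cluster. Tnfrsf9 was highest in cluster 2 (Il3, Il2 and Ccl3), at a mean over libraries of 1532 CPM (1428 to 1709), and lowest in cluster 1, at 366 CPM (340 to 406), ranges that lay far apart. Tnfrsf4 was highest in cluster 10 (Ccl1, Penk and Csf2), at 234 CPM (215 to 256), with cluster 2 close to it at 218 CPM (216 to 220), and was lowest in cluster 1, at 41.6 CPM (32.0 to 51.1). In the ISG-like cells 4.91%, 6.4% and 4.7% of thinned cells were positive for Tnfrsf4, against 7.69% of the myeloid-like cells. The myeloid share rests on 3 of 39 cells, with an interval of 1.62% to 20.9%, and is too imprecise to set a background level.

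Cd27 was highest in cluster 5, at 159 CPM (141 to 184), with cluster 4 next to it at 157 CPM, and lowest in clusters 8 and 7, at 56.9 CPM (49.4 to 71.6) and 60.6 CPM. Its ligand had another pattern. Cd70 was highest in cluster 10, at 51.7 CPM (26.5 to 71.7), then cluster 8, at 38.4 CPM (17.6 to 58.4), ranges that overlapped, and lowest in cluster 1, at 1.57 CPM (0.765 to 2.43).

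Tnfsf8 was highest in low-depth cluster 11, at 726 CPM (501 to 953), and among the deeper clusters in cluster 4, at 443 CPM (339 to 579), and was lowest in cluster 7, at 55.7 CPM (42.3 to 78.4). Cluster 4 alone held 39.2% of the Tnfsf8 UMIs of the sIL-2 library, beside 24.8% of all its UMIs, against 12.8% and 8.31% of the Tnfsf8 UMIs in the Trikine and sIL-2 + IL-21 libraries. The cluster held 26.3% of sIL-2 cells, 7.63% of Trikine cells and 4.86% of sIL-2 + IL-21 cells, so its size differed along with these shares. Outside the myeloid-like cells Tnfrsf1b was likewise highest in cluster 11, at 134 CPM (111 to 170), then cluster 4, at 81.4 CPM. It was lowest in cluster 8, at 28.5 CPM (25.3 to 33.5). Cd28 and Icos had their highest levels in cluster 11 (709 and 395 CPM) and then in the ISG-like cluster 1, at 568 CPM (527 to 621) and 273 CPM (262 to 292). The low-depth cells differ in RNA quality, with 9.85% mitochondrial UMIs in cluster 11, and their part in these levels was not tested.

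**Figure D3:**
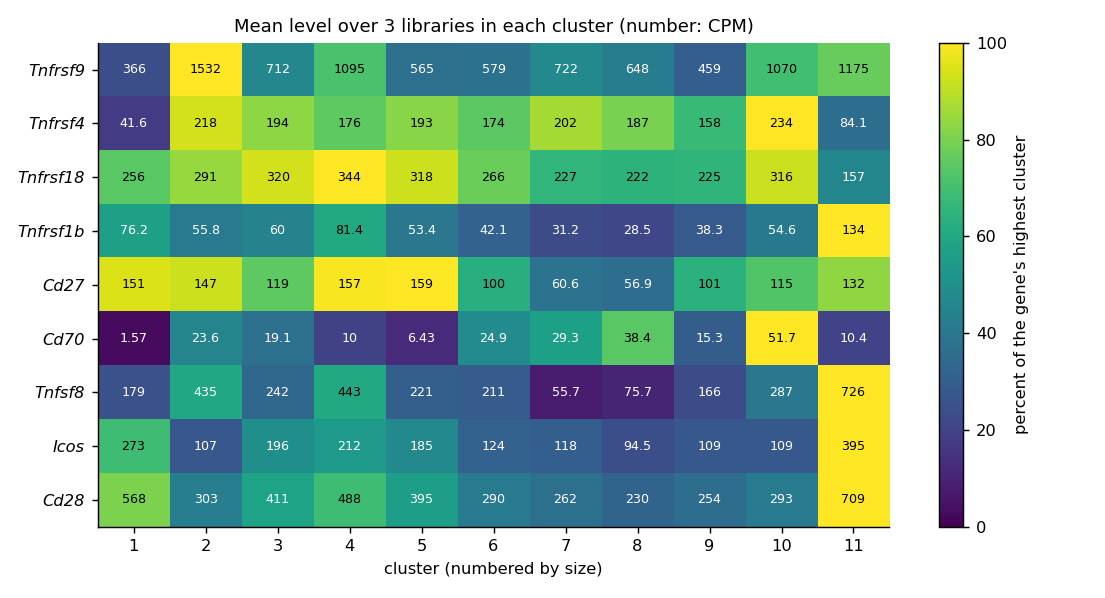
Mean level over the 3 libraries (number in each cell, CPM) of the 9 genes in clusters 1 to 11, with color for the percent of the gene's highest cluster. Tnfrsf9 stands highest in cluster 2 (mean 1532 CPM) and lowest in cluster 1 (366 CPM), whereas Cd28 and Icos are high in cluster 1.

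Levels were then compared between libraries within the same cluster. Among clusters with at least 50 cells in both libraries, 1 gene of the 9 was higher with the Trikine than with sIL-2 + IL-21 in each of 13, Tnfsf8, and none was lower in each, beside 1.59% and 1.93% of all tested genes. Its log2 ratios ran from 0.13 to 2.06 with a median of 0.57. With sIL-2 against sIL-2 + IL-21, Cd27 was higher in all 12 clusters compared (0.19 to 1.13, median 0.29) and no gene of the 9 was lower in each, beside 4.49% and 1.71%. With the Trikine against sIL-2, 0 of the 9 kept one direction in all 12, beside 2.1% higher and 4.82% lower. For Tnfrsf1b, Cd27 and Cd28 the exception was low-depth cluster 12 alone.

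Cd70 came near to keeping a single direction: it was lower with sIL-2 than with sIL-2 + IL-21 in 11 of 12 clusters. Cluster 12 had 0 Cd70 UMIs in both libraries, and the median log2 ratio was -1.37. Cluster 2 was an exception in size, at -0.06 [-0.29, 0.16], an interval that includes 0, and cluster 3 was at -2.29. The Trikine level was above that of sIL-2 in 11 of 12 clusters, with cluster 2 the other way at -0.49 [-0.69, -0.29]. Clusters 11 and 12 are counted with 10 and 18 UMIs against 0, where no ratio is defined. The intervals of clusters 1 and 9 include 0. Trikine over sIL-2 + IL-21 was below 0 in 11 of 13, with intervals that left out 0 in clusters 2, 3, 5, 6 and 10 alone. The Trikine level was the higher in cluster 8, at 0.57 [0.41, 0.74], and in cluster 12, with 18 UMIs against 0.

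Tnfsf8 with sIL-2 against sIL-2 + IL-21 was higher in 11 of 12 clusters, cluster 7 being at -0.13 [-0.30, 0.05]. With the Trikine against sIL-2, Tnfsf8 was higher in 6 of 12 clusters and lower in 6. The median was -0.03 and the range -0.74 to 0.89. Tnfrsf4 was higher with the Trikine than with sIL-2 in 11 of 12 clusters, and Tnfrsf1b, Cd27 and Cd28 were each lower in 11 of 12. In cluster 12 Tnfrsf1b, Cd27 and Cd28 were at 0.38 [-0.77, 1.76], 0.19 [-0.69, 1.21] and 1.33 [0.68, 2.06]. These values rest on 7, 12 and 20 UMIs in the sIL-2 library. Tnfrsf1b and Cd28 were higher with sIL-2 than with sIL-2 + IL-21 in 11 of 12, with cluster 12 again the exception. Against sIL-2 + IL-21, the Trikine library was lower in Tnfrsf1b in 12 of 13 clusters, with a median of -0.12, whereas the library ratio was 0.18. Only clusters 1, at -0.22 [-0.40, -0.05], and 9, at -0.34 [-0.58, -0.09], had Tnfrsf1b intervals that left out 0. Cd27 was higher with the Trikine than with sIL-2 + IL-21 in 9 of 13, with a median of 0.09. Tnfrsf4 was higher with the Trikine than with sIL-2 + IL-21 in 11 of 13, with a median of 0.07, whereas the library ratio was -0.08. The Tnfrsf4 exceptions were cluster 5, at -0.16 [-0.24, -0.07], and cluster 12, at -0.34 [-0.94, 0.30]. Tnfrsf18, nearly level between the Trikine and sIL-2 libraries, was higher with the Trikine in 9 of 12 clusters and lower in 3, with a median of 0.20. Against sIL-2 + IL-21 it was higher with the Trikine in 12 of 13, with a median of 0.19.

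Weighting each library's clusters by the cluster shares of all 3 libraries together made the differences smaller for most. In the sIL-2 to sIL-2 + IL-21 comparison the log2 ratio became 0.76 for Tnfsf8, -1.21 for Cd70, 0.32 for Cd27, 0.28 for Tnfrsf1b and 0.29 for Cd28. Cd70 and Tnfsf8 thus stayed past the size threshold and the other 3 did not. For Trikine over sIL-2 + IL-21 the ratios became 0.06 for Cd27, -0.30 for Cd70 and 0.45 for Tnfsf8, none of them past it. For Trikine over sIL-2, Cd70 became 0.91, Tnfrsf1b -0.40 and Tnfsf8 -0.31.

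**Figure D4:**
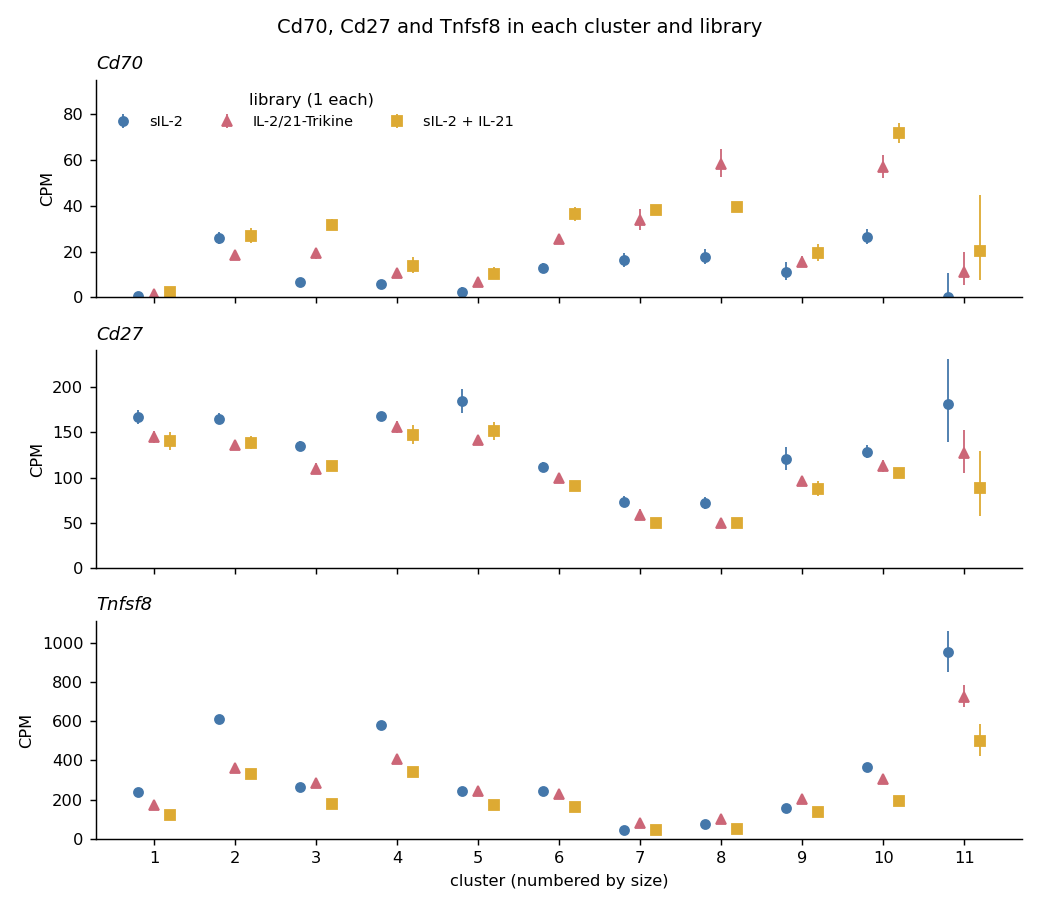
Level of Cd70, Cd27 and Tnfsf8 (CPM) in clusters 1 to 11, colored by library, with exact Poisson 95% intervals of counting error. Cd70 is lower with sIL-2 than with sIL-2 + IL-21 in each cluster shown, least clearly in cluster 2, and Tnfsf8 is higher with the Trikine than with sIL-2 + IL-21 in each.

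Ligands and receptors were compared next, since tumor-infiltrating T cells can carry both. Within the sorted cells, Cd27 counted 12.3 UMIs for each UMI of Cd70 with sIL-2, 5.68 with the Trikine, and 2.27 for sIL-2 + IL-21. No other pair among those with both genes at 1 CPM or more in each library differed as much between libraries: Tnfrsf4 per Tnfsf4 (OX40 ligand) was 4.95, 7.77 and 8.10, and Tnfrsf9 per Tnfsf9 (CD137 ligand) 21.6, 23.6 and 16.9. The Tnfsf9 level was 44.0, 31.7 and 42.3 CPM and that of Tnfsf4 31.8, 24.5 and 24.9 CPM.

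Both ligands of TNFR2 compared here were detected at low levels. Tnf was at 38.7, 27.6 and 31.1 CPM and Lta (lymphotoxin alpha) at 34.7, 36.7 and 43.6 CPM. Outside the myeloid-like cells both were highest in the early activated-like cluster 2 (means of 102 and 96.2 CPM). Tnf, which myeloid cells also make, was in 23.1% of the thinned myeloid-like cells against 4.69% to 6.21% of library cells, and Lta in 2.56% against 5.19% to 5.82%. For Tnfsf9 and Tnfsf4 the myeloid share was 7.69% each, against 4.92% to 6.85% and 3.66% to 4.87% of library cells. These library shares lay inside the myeloid interval of 1.62% to 20.9%, which rests on 3 of 39 cells. Whether the myeloid-like cells made these ligands themselves was not tested. Over clusters the mean level ran from 13.3 to 71.9 CPM for Tnfsf9 and from 6.46 to 51.5 CPM for Tnfsf4. Tnfrsf1b UMIs per Tnf UMI were 1.77, 1.68 and 1.32, and per Lta UMI 1.97, 1.27 and 0.945.

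The receptor of the CD30 ligand was nearly absent: Tnfrsf8 counted 67, 69 and 355 UMIs, or 0.515, 0.414 and 2.11 CPM, highest where Tnfsf8 was lowest. In log2, Trikine over sIL-2 + IL-21 was -2.35 [-2.75, -1.98] and sIL-2 over sIL-2 + IL-21 was -2.04 [-2.44, -1.66]. Clusters 7 and 8 held 36.9% and 35.5% of the Tnfrsf8 UMIs of the sIL-2 + IL-21 library, beside 24.7% and 26.3% of all its UMIs. Tnfsf18 (GITR ligand) had 1, 1 and 0 UMIs, so no ratio was drawn for it.

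The CD28 ligands Cd80 and Cd86, best known from antigen-presenting cells, were at 62.7, 42.9 and 47.4 CPM and at 15.4, 15.3 and 7.14 CPM. Antigen-presenting cells also make both, and the thinned myeloid-like cells were positive in 38.5% for Cd80 and 17.9% for Cd86, against 7.62% to 11.2% and 2.03% to 3.44% of library cells. Outside the myeloid-like cells Cd86 was highest in the ISG-like cluster 1, at a mean of 29.7 CPM. Its log2 ratio to sIL-2 + IL-21 was 1.10 with the Trikine and 1.11 with sIL-2. Under other processing settings the lowest values were 0.35 and 0.24, both short of the size threshold. Within clusters the medians were 0.52 and 0.31. Icosl was scarce, at 2.56, 1.83 and 1.71 CPM, and Icos per Icosl was 71.0, 79.5 and 76.0.

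Whether ligand and receptor were found in the same cells was read as the share of thinned cells with both, divided by the product of the single shares, with 1 for independence. The interval given is that of the share with both, divided by the product as if the product were known. It is therefore not an exact interval of the quotient, and an interval that includes 1 does not show independence. Cd70 and Cd27 were together in 16, 49 and 72 cells, and the quotient was 0.727 [0.416, 1.18], 0.791 [0.586, 1.05] and 0.942 [0.737, 1.19], each interval including 1. This depended on depth: for the Trikine library the quotient was 0.783 [0.676, 0.901] with cells thinned to 5000 UMIs and 1.23 [1.16, 1.31] without thinning. Tnfsf9 and Tnfrsf9 gave 1.14 [1.03, 1.25], 1.20 [1.09, 1.31] and 1.09 [0.991, 1.19], and Tnfsf4 and Tnfrsf4 1.16 [0.925, 1.43], 1.36 [1.15, 1.61] and 1.21 [1.02, 1.44]. Cd80 and Cd28 gave 0.995, 0.970 and 1.01, with intervals around 1. For Tnfsf8 and Tnfrsf8 with sIL-2 + IL-21 the quotient of 0.159 rests on 1 cell.

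**Figure D5:**
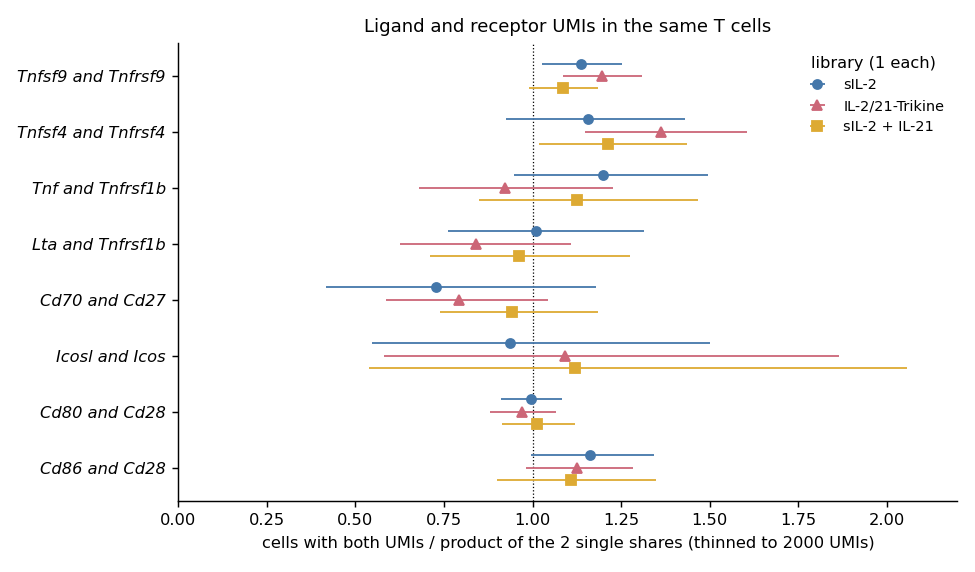
Share of cells with ligand and receptor over the product of the single shares for 8 pairs, by library, where 1 marks independence. Bars are 95% intervals of the share with both, divided by the product taken as known, and are not exact for the quotient. The Tnfsf9 and Tnfrsf9 and the Tnfsf4 and Tnfrsf4 pairs lie above 1, at up to 1.20 and 1.36. The interval of the former includes 1 with sIL-2 + IL-21, and that of the latter includes 1 with sIL-2, which does not show independence there. The Cd70 and Cd27 intervals include 1 at this depth.

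Among pairs of the 9 genes, Tnfrsf4 went with its neighbor Tnfrsf18 at 1.18 [1.10, 1.27], 1.20 [1.14, 1.26] and 1.18 [1.12, 1.25]. Tnfrsf4 also went with Cd70, at 1.70 [1.14, 2.44], 1.69 [1.40, 2.02] and 1.45 [1.24, 1.68]. Cd70 and Cd28 were found together less than the product, at 0.604 [0.408, 0.861], 0.693 [0.563, 0.842] and 0.815 [0.696, 0.947]. These quotients were taken over all clusters together.

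Over 38 units of cluster and library, with Pearson's r of log2(CPM + 1), the genes most like each of the 9 were as follows. The units share cells of the same libraries and differ in depth, so r is a description. Tnfrsf9 was most like Stat5a (0.90), a transducer of interleukin-2 signals, Tnfrsf1b like Cdk17 (0.96), and Tnfsf8 like Bach2 (0.93), a transcriptional repressor of effector genes. Icos and Cd28 were each other's nearest (0.95). Tnfrsf18 was most like Trbc2 (0.91), Cd27 like Pmepa1 (0.90), Tnfrsf4 like Smim36 (0.87), and Cd70 like Cnih1 and Pdia3 (0.80 each). Between members, Cd27 and Tnfsf8 had 0.77, Cd70 and Tnfrsf4 0.71, and Tnfrsf1b and Tnfrsf4 -0.48.

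Genes downstream of these receptors were counted from lists. Of 25 TRAF and NF-kB genes, all tested, 4 were higher with sIL-2 than with sIL-2 + IL-21, namely Nfkb1 (log2 0.73), Tnfaip3 (0.65), Map3k14 (0.64) and Rel (0.54), and 0 were lower, beside 11.3% and 7.29% of all tested genes. The list's median was 0.33 and 25 of 25 lay above 0, as did 6681 of 11275 tested genes and 8 of 8 CD8 identity genes. With the Trikine against sIL-2 the list had 1 lower, Nfkb1 at -0.56, and 0 higher, beside 7.42% and 3.45% of all tested genes. With the Trikine against sIL-2 + IL-21 none passed in either direction, beside 4.65% higher and 5.66% lower. The CD8 identity genes had a median of 0.32 in the first of these comparisons, close to that of the list.

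Of 15 CD28 and ICOS signaling genes, 5 were higher with sIL-2 than with sIL-2 + IL-21, among them Prkcq (0.78), Pik3r1 (0.63), Grap2 (0.52) and Malt1 (0.52), and 0 were lower, beside the same 11.3% and 7.29%. The list's median was 0.38, beside 0.32 for the CD8 identity genes and 0.08 for all tested genes. Trikine over sIL-2 had Pik3r1 at -0.64, and Trikine over sIL-2 + IL-21 had Prkcq at 0.52 and Akt1 at -0.52. Among the inhibitory receptors of the CD28 family, Pdcd1 (PD-1) was at 173, 103 and 172 CPM, lowest with the Trikine at a log2 ratio of -0.75 to sIL-2 and -0.74 to sIL-2 + IL-21. Btla was higher with the Trikine than with sIL-2 + IL-21, at 1.11, and Ctla4, at 0.17, was not past the size.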

How the data were processed

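The authors aligned the reads with Cell Ranger 9.0.0 (introns counted, per the study's methods, against a GRCm39 reference; the submitters' processing notes name mm10), and the deposited matrices hold UMI counts, not normalized, for 33696 genes in each of 3 libraries. No coordinates of the files are used; promoters come from a RefSeq table of build GRCm38.p6. The members and lists were chosen with earlier results of these data known.

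Cells with 500 to 120000 UMIs and at most 20% mitochondrial UMIs were kept. UMIs were summed per library and divided by the library total (130200802 in the sIL-2 library, 166772854 in that of the IL-2/21-Trikine, and 168041089 in that of sIL-2 + IL-21). Ratios carry exact conditional binomial 95% intervals, levels exact Poisson intervals and shares exact Clopper-Pearson intervals, all of counting error only. Genes with a mean of at least 1 CPM counted as tested. Shares were thinned to 2000 UMIs, with 7494, 11524 and 9434 cells left, in that order. Clusters used scanpy 1.11.5 and leidenalg 0.10.2 with 2000 variable genes, 50 components, 20 neighbors and resolution 1.0, without the members, their partners, the family and marker lists and antigen receptor segments. A cluster was named X-like where 2 markers of a list stood among its top 10 genes, a rule set after the data were seen. Low-depth clusters stayed unnamed.

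Genes named were all members and partners, genes of each list past the size threshold, the closest genes of each member, and leading or marker genes of clusters. Some genes that meet this rule are not reported here. Scripts ran in Python 3.11.15 with numpy 2.4.6, pandas 2.3.3 and scipy 1.17.1, and were tested on simulated counts. Alternatives were the scaling, weight of cells, cell limits, depth, cells left out, cluster weighting, fold, filter, resolution and thinning.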

Additional observations from a re-analysis of the deposited data

How the results depend on the processing

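With 1 library per treatment no replicate could be left out, and no paired analysis was possible because each treatment has 1 library. Over 51 ratios of members and partners, 8 alternatives each gave 408 values, of which 256 moved by less than the counting interval and 152 by more, and no ratio past a log2 ratio of 0.5 changed sign. Some smaller ratios of members and partners did change sign. Among the 9 genes, Tnfrsf18 for Trikine over sIL-2 went from 0.02 to as low as -0.06. For Trikine over sIL-2 + IL-21, Tnfrsf4 went from -0.08 to as high as 0.06 and Tnfrsf1b from 0.18 to as low as -0.12. For Trikine over sIL-2 the count of members past the size (2 as reported) became 1 with size factors, 1 with the cluster shares of all libraries and 0 with a log2 ratio of 1. For Trikine over sIL-2 + IL-21 (3 as reported) it became 0 and 1, and in the sIL-2 to sIL-2 + IL-21 comparison (5 as reported) 2 and 2, under the last 2 of these settings. The percent of all genes past the size (10.9, 10.3 and 18.6 as reported) became 27.7, 29.0 and 33.7 with no filter on low levels, and 6.73 and 5.45 in the first pair of comparisons with a mean of at least 50 CPM. Leaving out the 5% of cells with the most UMIs was chosen after seeing the data and kept the counts within 1.5 times those reported. The count of ligand and receptor pairs with a quotient of co-detection above 1 in the Trikine library (4 as reported) became 9 without thinning. Cells of the Trikine library were the shallowest, which limits its rare genes such as Cd70.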

Other observations

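Other TNF superfamily genes also differed between libraries, as values without a test. Tnfsf11 (RANKL) was at 145 CPM in the sIL-2 library, 142 in that of the IL-2/21-Trikine, while sIL-2 + IL-21 gave 236, and its decoy receptor Tnfrsf11b (osteoprotegerin) at 1.34, 0.642 and 3.37 CPM, so ligand and decoy were both highest with sIL-2 + IL-21. Tnfsf14 (LIGHT), the neighbor of Cd70 on chromosome 17, had the opposite order to Cd70, at 25.4, 15.2 and 10.1 CPM. Cd40lg was at 24.4, 19.7 and 14.1 CPM, Ltb at 325, 295 and 257 CPM, and Fasl at 131, 115 and 94.3 CPM. Of 7 tested ligands that are neither among the 9 genes nor partners of them, 2 were higher (Tnfsf14 and Cd40lg) and 1 lower (Tnfsf11) with sIL-2 than with sIL-2 + IL-21. Of 12 tested receptors chosen the same way, which leaves out Tnfrsf8, 6 were higher (Tnfrsf10b, Tnfrsf12a, Tnfrsf14, Tnfrsf23, Tnfrsf25 and Tnfrsf26) and 2 lower (Tnfrsf11b and Tnfrsf13b). In the same comparison 11.3% of all tested genes were higher and 7.29% lower.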
